A study of Mus musculus with 9 samples.

Results

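The ADAM genes encode membrane-anchored proteins that carry a metalloprotease and a disintegrin domain. They were taken here as every array probe whose gene symbol begins with Adam and a digit, so that the Adamts and Adamtsl genes are not among them. This gave 65 probes for 32 genes, of 45279 probes and 19057 named genes in all. By role, 19 of the genes are sperm genes with 30 probes, 7 are somatic genes with the zinc-binding motif (16 probes), 3 are somatic genes without it (11 probes) and 2 are listed as epididymal (6 probes). Adam34l, with 2 probes, has no role assigned and is counted with the sperm genes below.

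The RNA came from mouse spermatids, the haploid cells that follow meiosis, and was hybridized to Illumina Mouse WG-6 bead arrays, 3 per genotype. By the labels, the Wip1-/- Atm+/- mice lack both alleles for Wip1, the phosphatase encoded by Ppm1d, and 1 allele of the DNA damage kinase gene Atm, the Wip1-/- mice lack Wip1 alone, and the control is Wip1+/+. Strain, age and the deleted exons are not stated in the labels, and neither is it whether each array stands for its own animal. The spread behind every p-value is thus that of the arrays, and it may be technical. The series title asks about Wip1, ATM and BRCA1 in DNA methylation and heterochromatin.

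In the testis, sperm ADAM proteins are made as precursors, fold in the endoplasmic reticulum with the help of chaperones, form complexes with each other and reach the sperm surface, where several serve in migration through the oviduct and in binding the egg. Many of them lack an active protease site. Somatic ADAM proteases such as ADAM10 and ADAM17 instead cut the outer parts of growth factors, cytokines, adhesion molecules and Notch receptors from the cell surface, a step called shedding.

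Median scanner intensity was 100.5 to 121.8 over the 9 arrays. The correlation of log2 signal across probes, which are not independent replicates, was 0.987 to 0.993 within a genotype and 0.958 to 0.982 between genotypes. The brightest Ppm1d probe averaged 9.44 ± 0.07 on the arrays labelled Wip1-/- Atm+/-, 8.68 ± 0.15 on Wip1-/- arrays and 9.34 ± 0.18 on Wip1+/+ arrays (log2, SD, n = 3 each). It was lower in Wip1-/- (change -0.66, limma adjusted p = 0.00634) but did not show a loss on the arrays labelled Wip1-/- Atm+/- (change 0.10, limma adjusted p = 0.61), and the directions drawn from those arrays rest on their label. A dimmer Ppm1d probe, ILMN_1226504, was detected on all 3 Wip1-/- arrays and on 0 others, and passed the detection filter through them alone. Its Wip1-/- mean of 6.01 went against a loss there. The means of 4.92 in Wip1-/- Atm+/- and 4.79 in Wip1+/+ were at background, so no size of change is given. Atm stood at 6.37, 7.88 and 7.08 in the same order by ILMN_2492491 and at 7.26, 6.86 and 6.23 by ILMN_1258206, so in Wip1-/- Atm+/- against Wip1+/+ these Atm probes went opposite ways. Where any of these probes lies relative to the alleles was not analysed here. Markers of other cells also moved with genotype. The summed signal of 15 tested peritubular, vascular and stromal markers was 27857 to 28015 on the arrays labelled Wip1-/- Atm+/-, 11835 to 12923 on Wip1-/- arrays and 5191 to 5332 on Wip1+/+ arrays, and 12, 11 and 11 of them were called higher in Wip1-/- Atm+/- against Wip1+/+, in Wip1-/- against Wip1+/+ and in Wip1-/- Atm+/- against Wip1-/-, with 2 lower in the last. Those 2, Cdh5 and Tek, were highest in Wip1-/-, averaging 5.28, 5.79 and 5.01 and 5.31, 6.10 and 5.05 in Wip1-/- Atm+/-, Wip1-/- and Wip1+/+. Both were detected on 0 Wip1+/+ arrays, as was Eng, which was called higher in each mutant against Wip1+/+. Col1a2 and Col3a1 were detected on the 3 arrays labelled Wip1-/- Atm+/- and on 0 others. They passed the detection filter through the genotype where they are high, so their calls add no support to the counts. Acta2 was the brightest of the list (14.02, 12.88 and 11.58 in the same order) and weighs most in the sum. Tagln, Cnn1, Pdgfrb and Pecam1 of that list had no probe that passed the detection filter. The 3 tested erythroid genes summed to 1719 to 1801, 398 to 477 and 208.9 to 251.5 in the same order of genotypes. Of 11 tested round spermatid markers, 1 was called higher and 4 lower in Wip1-/- Atm+/- against Wip1-/-, and 1 was lower in each mutant against Wip1+/+. The summed signal of these 11 was 73294 to 77289 on the arrays labelled Wip1-/- Atm+/-, 87961 to 89815 on Wip1-/- arrays and 79417 to 84511 on Wip1+/+ arrays. Of 9 tested spermatocyte markers, 3 were lower in Wip1-/- Atm+/- against Wip1+/+ (Spo11, Mlh3 and Ccna1) and 3 against Wip1-/- (Spo11, Ccna1 and Hspa2). Another 2, Syce2 (1.37) and Sycp1 (0.83), were higher in Wip1-/- Atm+/- against Wip1-/-. The same 2 were lower in Wip1-/- against Wip1+/+ (-0.87 and -0.76). Of 12 tested elongating spermatid markers, 3 were called higher in Wip1-/- Atm+/- against Wip1-/-, 1 was lower in Wip1-/- Atm+/- against Wip1+/+ and 2 in Wip1-/- against Wip1+/+. Of 6 tested spermatogonium markers, 5 were lower in Wip1-/- Atm+/- against each other genotype, and 1, Dazl, was higher in Wip1-/- against Wip1+/+ (0.58). Macrophage and immune markers, 7 tested, went both ways. In Wip1-/- against Wip1+/+ 2 were higher and 1 lower, and in Wip1-/- Atm+/- against each other genotype 1 was higher and 2 lower. Over all probes, 9.6% were higher and 8.07% lower in Wip1-/- against Wip1+/+. These shares were 13.3% and 14.8% in Wip1-/- Atm+/- against Wip1+/+, and 15.1% and 18.6% in Wip1-/- Atm+/- against Wip1-/-. Several of the small counts were near or below them and show no more than the values of those genes. A marker counts once, by its brightest tested probe. The part of these markers in the ADAM results was not tested, and fewer cells of a type cannot be told apart from less RNA per cell.

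Most probes of sperm ADAM genes gave a signal, and most of somatic ADAM genes did not. A probe was tested where its signal stood above the array's negative controls (detection p under 0.05) on 3 or more arrays. Of the 64 ADAM probes with scanner values, 30 probes for 21 genes were tested, 26 probes were detected on all 9 arrays, and 29 were detected on none. By role, 21 of the 30 sperm probes (the 1 probe of Adam18, without scanner values, included in the 30) were tested, against 4 of 16 somatic probes with the zinc motif, 3 of 11 without it, 1 of 6 epididymal probes and 1 of 2 of Adam34l. The 10 genes with scanner values but no tested probe were Adam2, Adam7, Adam8, Adam9, Adam10, Adam12, Adam23, Adam25, Adam33 and Adam34. Adam2 encodes fertilin beta, which sperm need to bind the egg, and its only probe was detected on 0 of 9 arrays. That is a statement about this probe, and probe sequences were not used here. Adam10, the main shedding protease of Notch receptors, had a pair of probes, each detected on 0 arrays.

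**Figure D1:**
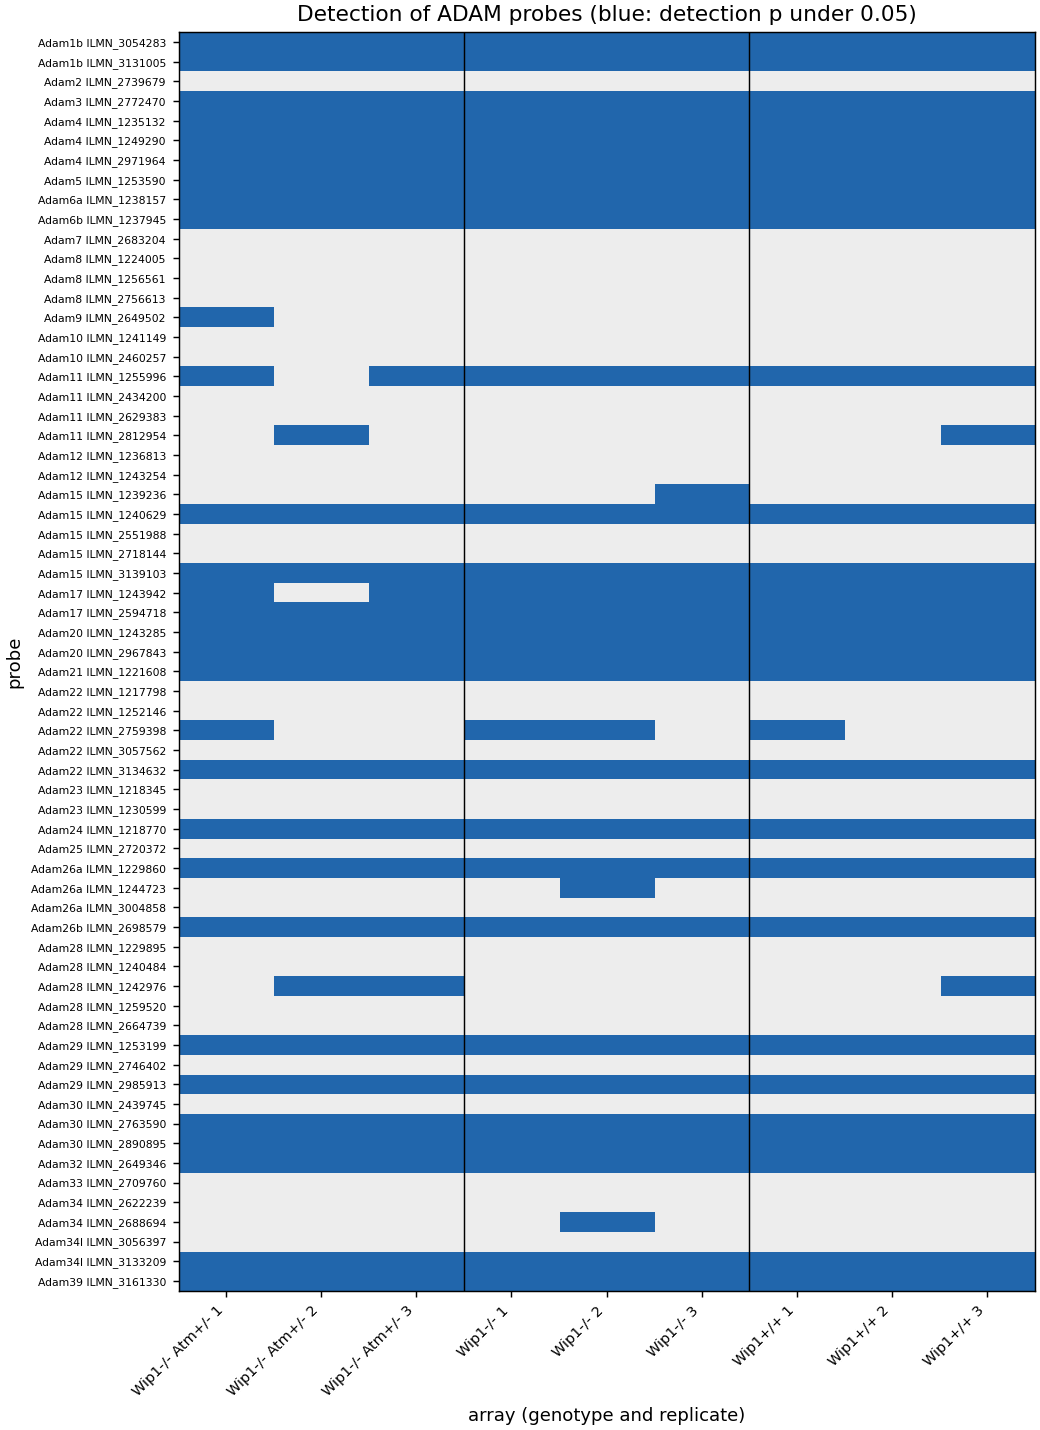
Detection of the 64 ADAM probes with scanner values (rows) on the 9 arrays (columns, by genotype and replicate), blue where the detection p was under 0.05. Of these, 26 rows are blue on all 9 arrays and 29 on none.

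The ADAM genes are unevenly placed in the genome, with 14 of the 32 on chromosome 8. By the RefSeq gene table of assembly GRCm38.p6, Adam18, Adam3, Adam5, Adam32 and Adam9 are neighbours there, as are Adam24, Adam25, Adam20 and Adam39, and Adam26b, Adam26a, Adam34l and Adam34. In the first of these rows of genes the sperm members Adam3, Adam5 and Adam32 were detected on all 9 arrays, while the somatic Adam9 was detected on 1 array labelled Wip1-/- Atm+/-. In the second, Adam24, Adam20 and Adam39 were detected on all 9 arrays and the single probe of Adam25 on 0. Adam20 and Adam25 have near-identical promoters, shown here because their probes differed in detection. Windows of 300 bases, 250 before the start and 50 after it, aligned with 284 identical bases in 304 columns, gaps counted (93.4%), the highest identity among 120 pairs of ADAM promoters, and Adam26b with Adam34l came next at 70.8%. The 250 bases before each start are on the plus strand of GRCm38.p6 (RefSeq), at chr8:40793023-40793272 for Adam20 and chr8:40751958-40752207 for Adam25. Capitals mark the 12 bases of each that the alignment did not match to an equal base of the other.
Adam20: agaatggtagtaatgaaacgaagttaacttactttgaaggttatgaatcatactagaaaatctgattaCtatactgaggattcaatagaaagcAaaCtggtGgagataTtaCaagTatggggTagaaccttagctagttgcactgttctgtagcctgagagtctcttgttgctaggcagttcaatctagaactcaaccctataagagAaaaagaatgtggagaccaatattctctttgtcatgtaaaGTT
Adam25: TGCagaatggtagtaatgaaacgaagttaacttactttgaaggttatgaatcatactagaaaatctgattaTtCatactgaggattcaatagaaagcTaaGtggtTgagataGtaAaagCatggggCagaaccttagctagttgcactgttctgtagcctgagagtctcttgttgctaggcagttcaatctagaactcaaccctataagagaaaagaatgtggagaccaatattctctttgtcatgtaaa
The alignment covers promoters, and transcripts and probes were not compared. Whether a probe also reads the other copy or misses its own was not tested here.

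Few ADAM probes changed between genotypes. They did so in both directions and at shares near or below those of all probes. In Wip1-/- against Wip1+/+, 1 ADAM probe of 30 was called higher, against 9.6% of all 18867 tested probes, and 2 were called lower, against 8.07%. In Wip1-/- Atm+/- against Wip1+/+, 2 were higher (all probes 13.3%) and 4 lower (all probes 14.8%). In Wip1-/- Atm+/- against Wip1-/-, 4 were higher (all probes 15.1%) and 3 lower (all probes 18.6%). A call is a limma adjusted p under 0.05, with Benjamini-Hochberg adjustment over all tested probes. The median log2 change of the 30 ADAM probes was -0.04, 0.00 and 0.02 in these comparisons, against 0.02, -0.06 and -0.03 for all probes. In all, 9 probes of 7 genes were called at least once and 21 probes were never called. These shares depend on the scaling. When the arrays were instead scaled to a common median, the median change of all probes was 0.09, -0.17 and -0.22, and that of the ADAM probes was -0.01, -0.17 and -0.11. The higher part of all calls was then 70.7%, 32.1% and 23.8%, against 54.3%, 47.4% and 44.8% with quantile normalization. The 3 comparisons share arrays and are not independent.

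**Figure D2:**
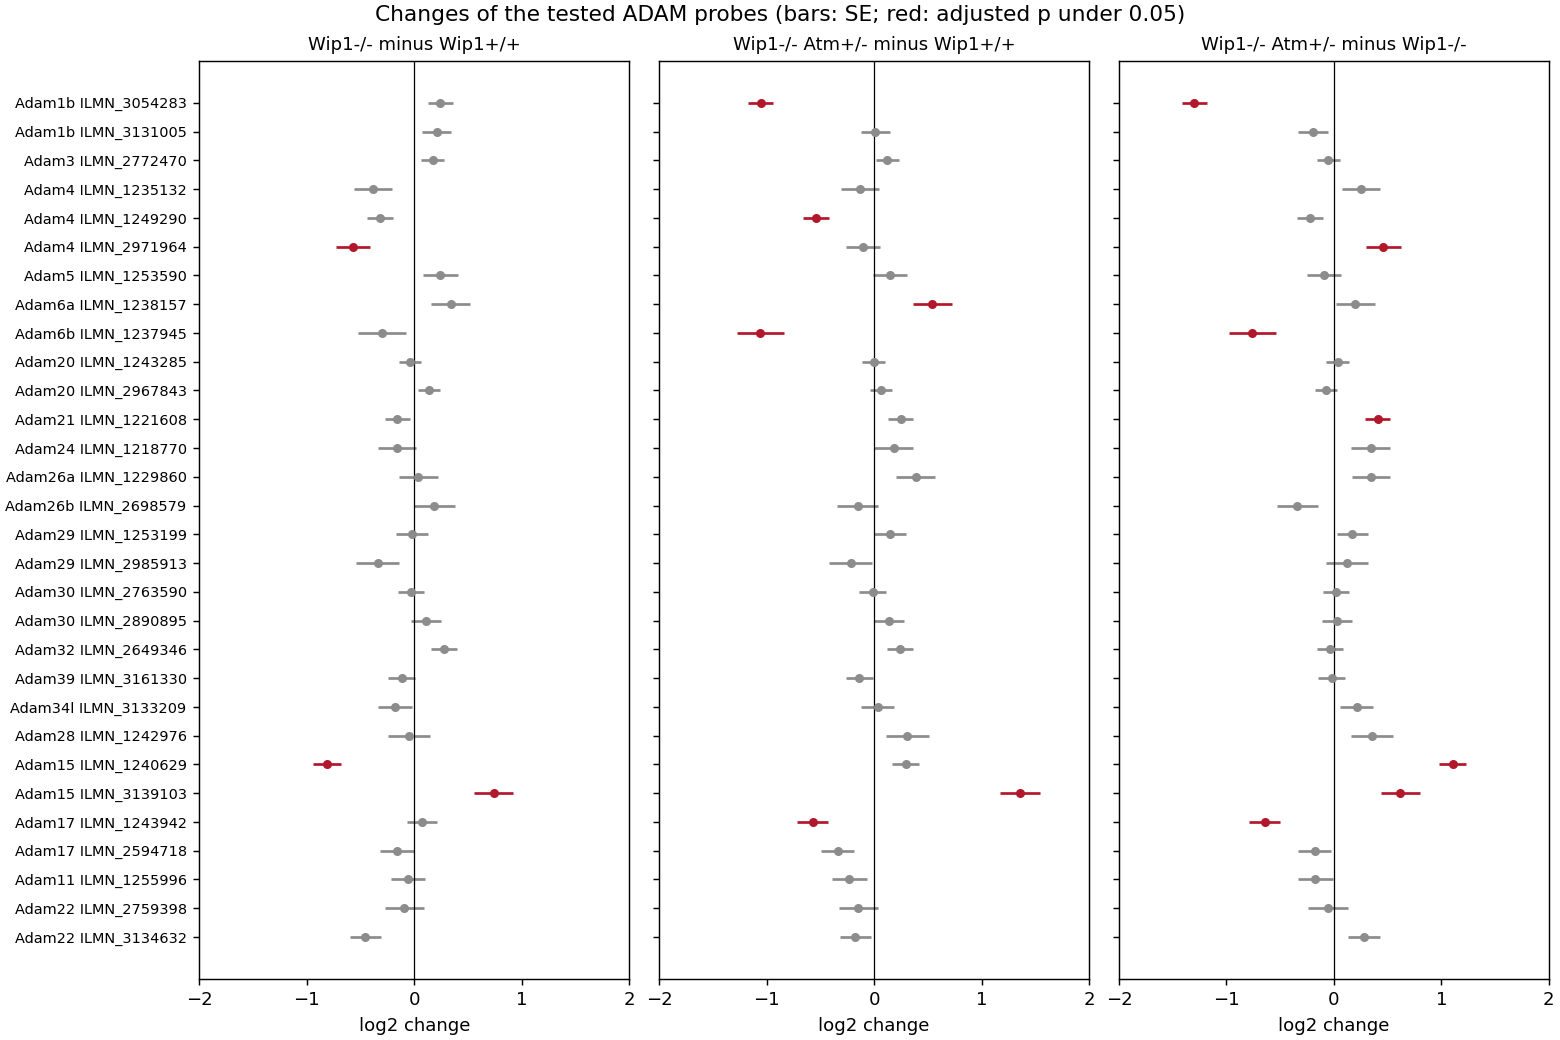
Log2 change of the 30 tested ADAM probes (rows, sperm genes at the top, then Adam34l, Adam28 and the somatic genes) in each comparison (panels). Points are limma estimates, bars are standard errors, and the 9 probes shown in red at least once passed an adjusted p of 0.05 in that panel.

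Among the sperm ADAM genes, 10 of those tested were called in no comparison. Adam3, needed for sperm to pass into the oviduct and to bind the egg coat, averaged 14.34 ± 0.04 on the arrays labelled Wip1-/- Atm+/-, 14.40 ± 0.05 on Wip1-/- arrays and 14.22 ± 0.10 on Wip1+/+ arrays (log2 signal, SD, n = 3 each). Its changes against Wip1+/+ were 0.12 ± 0.11 in Wip1-/- Atm+/- and 0.17 ± 0.11 in Wip1-/- (SE). The others ranged over the 9 arrays from 12.93 to 13.65 (Adam5), 13.42 to 13.93 (Adam32), 10.40 to 11.13 (Adam24, of which the protein acts in mouse against fertilisation by several sperm), 8.75 to 9.45 (Adam26a), 9.52 to 10.38 (Adam26b) and 10.16 to 10.59 (Adam39). Adam20 ranged from 10.87 to 11.03 and 10.79 to 10.98 by its probes, Adam29 from 9.63 to 10.22 and 6.87 to 7.84, and Adam30 from 10.20 to 10.50 and 10.05 to 10.59. The signal of Adam34l ran from 8.39 to 9.03. Signals of different probes are not comparable as amounts of RNA, and a missed threshold does not show that genotypes were alike. Across the 22 tested probes of sperm genes and Adam34l, 1 was called in Wip1-/- against Wip1+/+, 4 in Wip1-/- Atm+/- against Wip1+/+ and 4 in Wip1-/- Atm+/- against Wip1-/-, in either direction. Over all probes these shares were 17.7%, 28.1% and 33.6%.

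Adam18, a testis gene beside Adam3, has blank scanner cells and could be read only in the authors' processed table. Its intensity there was 4344, 4134 and 4393 on the arrays labelled Wip1-/- Atm+/-, 4784, 5016 and 4689 on Wip1-/- arrays and 4356, 4451 and 4599 on Wip1+/+ arrays. The Wip1-/- values lay above all others, and the other genotypes overlapped. On the log2 scale of these values the changes were 0.11 in Wip1-/- against Wip1+/+, -0.06 in Wip1-/- Atm+/- against Wip1+/+ and -0.17 in Wip1-/- Atm+/- against Wip1-/- (SE 0.08 each). None was called (limma adjusted p = 0.554, 0.778 and 0.22), where 7.99%, 13.1% and 15.1% of all 45279 probes of that table were.

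Adam1b encodes the ADAM1 form found on the sperm surface in mouse, a partner of ADAM2 in fertilin. By ILMN_3054283 it stood at 7.32, 7.50 and 7.55 on the arrays labelled Wip1-/- Atm+/-, at 8.88, 8.67 and 8.72 on Wip1-/- arrays and at 8.55, 8.53 and 8.45 on Wip1+/+ arrays. The arrays labelled Wip1-/- Atm+/- lay below every other array. Signal of this probe was lower there, with a change of -1.06 against Wip1+/+ (SE 0.12, limma adjusted p = 4.66e-05) and -1.30 against Wip1-/- (SE 0.12, limma adjusted p = 1.42e-05). It was not called in Wip1-/- against Wip1+/+ (0.24, limma adjusted p = 0.173). The gene's other tested probe, ILMN_3131005, gave 10.54, 10.25 and 10.42 on the arrays labelled Wip1-/- Atm+/-, 10.82, 10.49 and 10.47 on Wip1-/- arrays and 10.35, 10.53 and 10.28 on Wip1+/+ arrays. These groups overlapped, and its change in Wip1-/- Atm+/- against Wip1+/+ was 0.01 ± 0.14 (SE). The Adam1b result therefore held for 1 of its 2 probes. Adam1a, its neighbour and close relative, is not among the probes.

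Adam4, another testis-expressed ADAM gene, had 3 tested probes that did not change alike. ILMN_1249290 stood at 8.51, 8.72 and 8.72 on the arrays labelled Wip1-/- Atm+/-, 8.89, 8.79 and 8.93 on Wip1-/- arrays and 9.06, 9.29 and 9.23 on Wip1+/+ arrays. The 3 genotypes did not overlap, with the arrays labelled Wip1-/- Atm+/- lowest. It was lower in Wip1-/- Atm+/- against Wip1+/+ by this probe (-0.54, SE 0.12, limma adjusted p = 0.00568). ILMN_2971964 stood at 10.06, 10.06 and 9.98 on the arrays labelled Wip1-/- Atm+/-, 9.61, 9.55 and 9.55 on Wip1-/- arrays and 9.74, 10.41 and 10.27 on Wip1+/+ arrays. Here the Wip1-/- arrays lay below all others, while the Wip1+/+ arrays spread over both sides of those labelled Wip1-/- Atm+/-. This probe was lower in Wip1-/- against Wip1+/+ (-0.57, SE 0.16, limma adjusted p = 0.0304) and higher in Wip1-/- Atm+/- against Wip1-/- (0.46, SE 0.16, limma adjusted p = 0.043). The first of these calls was lost without Wip1+/+ replicate 2 or 3 or any Wip1-/- replicate, with adjusted p from 0.0767 to 0.0928, and with only these genotypes in the fit (0.0559). The second was lost without any replicate of either genotype, at 0.0789 to 0.104, and under median scaling (0.18, adjusted p = 0.376). Both were lost with no filter on dim probes. Over all alternatives the adjusted p ran from 0.00377 to 0.0928 for the first and from 0.00702 to 0.376 for the second. The brightest probe, ILMN_1235132, averaged 10.90 ± 0.15, 10.65 ± 0.09 and 11.04 ± 0.38 in Wip1-/- Atm+/-, Wip1-/- and Wip1+/+ (SD, n = 3 each) and was not called.

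Adam6a and Adam6b are neighbouring copies on chromosome 12 that encode ADAM6, a member of sperm surface complexes with ADAM2 and ADAM3 in mouse. Their promoters are shown because they share a long block while their probes changed in opposite directions. The 250 bases before each start are on the plus strand of GRCm38.p6 (RefSeq), at chr12:113543658-113543907 for Adam6a and chr12:113489315-113489564 for Adam6b. Capitals mark a run of 149 identical bases, which ends 0 bases before the Adam6a start and 101 bases before the Adam6b start. The run is limited by the edge of the Adam6b window and by the Adam6a start, where the searched bases stop. Its length is thus a lower limit, and identity is not shown to end at the Adam6a start. The longer windows, which also hold bases after each start, aligned with 199 identical bases in 401 columns, gaps counted.
Adam6a: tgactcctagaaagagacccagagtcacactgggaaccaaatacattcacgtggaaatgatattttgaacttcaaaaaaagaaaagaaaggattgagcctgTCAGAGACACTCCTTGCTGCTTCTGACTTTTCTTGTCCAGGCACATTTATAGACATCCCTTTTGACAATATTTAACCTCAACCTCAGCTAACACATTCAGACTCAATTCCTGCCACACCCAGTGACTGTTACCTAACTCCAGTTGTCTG
Adam6b: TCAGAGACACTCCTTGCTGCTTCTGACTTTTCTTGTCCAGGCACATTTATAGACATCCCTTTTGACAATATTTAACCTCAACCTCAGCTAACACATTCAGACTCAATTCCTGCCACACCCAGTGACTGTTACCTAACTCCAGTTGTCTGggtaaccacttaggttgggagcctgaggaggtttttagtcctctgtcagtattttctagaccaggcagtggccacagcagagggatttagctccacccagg
The Adam6a probe ILMN_1238157 stood at 9.63, 9.73 and 9.67 on the arrays labelled Wip1-/- Atm+/-, 9.38, 9.76 and 9.29 on Wip1-/- arrays and 8.86, 9.01 and 9.54 on Wip1+/+ arrays. All arrays labelled Wip1-/- Atm+/- lay above the Wip1+/+ arrays, by a narrow margin over Wip1+/+ replicate 3. It was called higher in Wip1-/- Atm+/- against Wip1+/+ (0.54, SE 0.18, limma adjusted p = 0.0451). That call was lost, with the direction kept, without Wip1+/+ replicate 1 or 2, Wip1-/- replicate 1 or 3 or any replicate labelled Wip1-/- Atm+/- (0.40 to 0.57) and under median scaling (0.33). It was also lost with no filter on dim probes (adjusted p = 0.0892) and with only these genotypes in the fit (0.0572), and over all alternatives the adjusted p ran from 0.0062 to 0.191. The Adam6b probe ILMN_1237945 stood at 5.73, 6.06 and 6.49 on the arrays labelled Wip1-/- Atm+/-, 6.69, 7.28 and 6.58 on Wip1-/- arrays and 6.999, 7.08 and 7.37 on Wip1+/+ arrays. The arrays labelled Wip1-/- Atm+/- were the lowest 3 of the 9. It was lower in Wip1-/- Atm+/- against Wip1+/+ (-1.06, SE 0.22, limma adjusted p = 0.00414) and against Wip1-/- (-0.76, SE 0.22, limma adjusted p = 0.0209). The second call was lost without Wip1-/- replicate 2 or replicate 1 or 2 labelled Wip1-/- Atm+/- and with no filter on dim probes, with adjusted p from 0.00399 to 0.082 over the alternatives. Without background correction the Adam6b changes were smaller, at -0.58 and -0.40, and remained called. Whether each probe reads only its own copy was not tested.

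Adam21, a testis-expressed gene, stood at 10.98, 11.03 and 10.79 on the arrays labelled Wip1-/- Atm+/-, 10.45, 10.59 and 10.54 on Wip1-/- arrays and 10.61, 10.64 and 10.80 on Wip1+/+ arrays. The Wip1-/- arrays lay below all others. It was higher in Wip1-/- Atm+/- against Wip1-/- (0.41, SE 0.12, limma adjusted p = 0.0206). This call was lost without Wip1-/- replicate 1 or 3 or replicate 1 or 2 labelled Wip1-/- Atm+/-, and under median scaling (0.18), with adjusted p from 0.00441 to 0.285 over the alternatives.

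**Figure D3:**
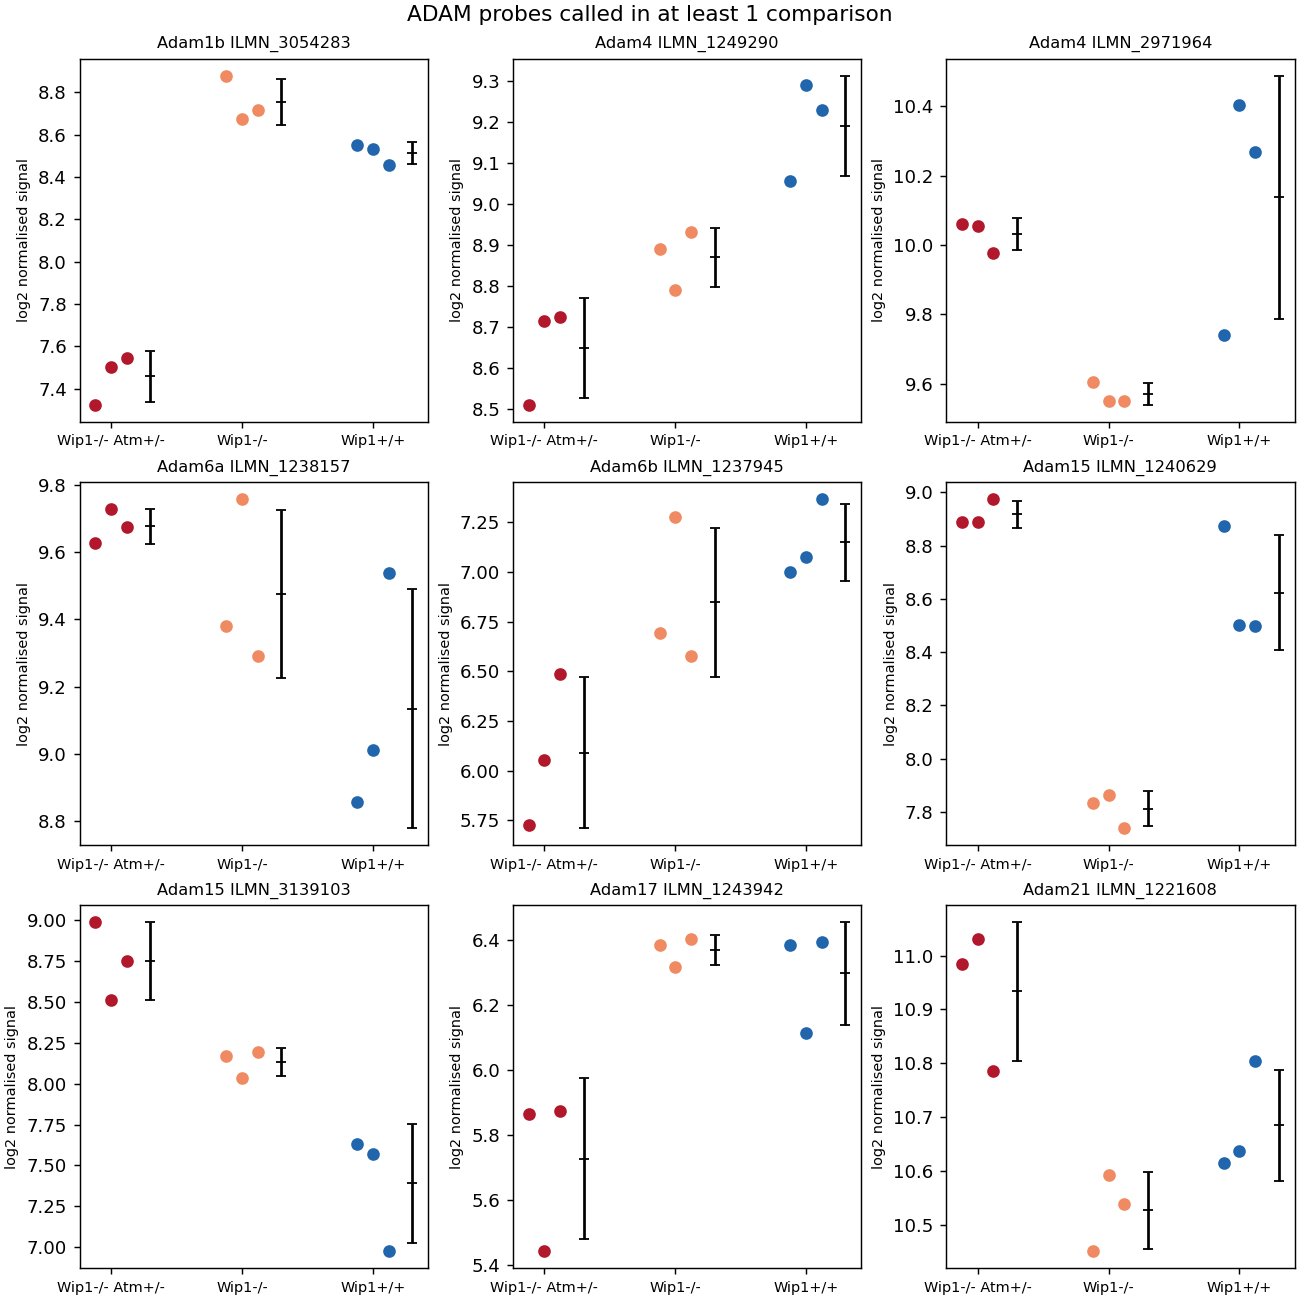
Log2 normalised signal of the 9 ADAM probes called in at least 1 comparison, 1 panel per probe. Points are arrays, with Wip1-/- Atm+/- left, Wip1-/- in the middle and Wip1+/+ right, and black bars are the mean and SD (n = 3); the arrays labelled Wip1-/- Atm+/- lie lowest for Adam1b ILMN_3054283, between 7.32 and 7.55.

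Of the 7 tested somatic probes, 2 were called in Wip1-/- against Wip1+/+, 2 in Wip1-/- Atm+/- against Wip1+/+ and 3 in Wip1-/- Atm+/- against Wip1-/-, all of them probes of Adam15 and Adam17. With 7 probes these counts show no more than the values of those probes, where 17.7%, 28.1% and 33.6% of all probes were called in either direction. Adam15 encodes a widely expressed ADAM protein, which binds integrins in human. Its ILMN_3139103 probe stood at 8.99, 8.51 and 8.75 on the arrays labelled Wip1-/- Atm+/-, 8.17, 8.03 and 8.19 on Wip1-/- arrays and 7.63, 7.57 and 6.97 on Wip1+/+ arrays. The 3 genotypes did not overlap. It was higher in Wip1-/- Atm+/- against Wip1+/+ (1.36, SE 0.18, limma adjusted p = 2.22e-04), in Wip1-/- against Wip1+/+ (0.74, SE 0.18, limma adjusted p = 0.0179) and in Wip1-/- Atm+/- against Wip1-/- (0.62, SE 0.18, limma adjusted p = 0.0227). The call in Wip1-/- was lost without Wip1-/- replicate 1 or 3 (adjusted p from 0.00486 to 0.0624 over the alternatives). The call between the mutants was lost without Wip1-/- replicate 1 or 2 or replicate 1 or 3 labelled Wip1-/- Atm+/-, and under median scaling (0.34; 0.00475 to 0.166 over the alternatives). The order of the genotypes in this probe was also that of the summed peritubular, vascular and stromal markers given above, and their part in it was not tested.

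The brighter Adam15 probe, ILMN_1240629, is assigned to another transcript of the gene and gave a different order. It stood at 8.89, 8.89 and 8.98 on the arrays labelled Wip1-/- Atm+/-, 7.83, 7.87 and 7.74 on Wip1-/- arrays and 8.87, 8.50 and 8.50 on Wip1+/+ arrays. The Wip1-/- arrays were lowest and overlapped with no other array. By this probe Adam15 was lower in Wip1-/- against Wip1+/+ (-0.81, SE 0.13, limma adjusted p = 0.00188) and higher in Wip1-/- Atm+/- against Wip1-/- (1.11, SE 0.13, limma adjusted p = 8.16e-05). The change in Wip1-/- Atm+/- against Wip1+/+ was 0.29 ± 0.13 (SE, limma adjusted p = 0.112). Both tested Adam15 probes thus changed in Wip1-/-, in opposite directions. Both directions held in all alternatives run for these probes. ILMN_1239236, assigned to the same transcript as ILMN_1240629, was detected on 1 Wip1-/- array and on 0 others. ILMN_2718144, assigned to the same transcript as ILMN_3139103, was detected on 0 arrays. Which transcripts the probes read was not tested.

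Adam17 encodes the protease that sheds tumour necrosis factor and several growth factors. Its ILMN_1243942 probe stood at 5.87, 5.44 and 5.87 on the arrays labelled Wip1-/- Atm+/-, 6.39, 6.32 and 6.40 on Wip1-/- arrays and 6.39, 6.11 and 6.39 on Wip1+/+ arrays. The arrays labelled Wip1-/- Atm+/- were the lowest, and 1 of them was not above background. The probe was lower in Wip1-/- Atm+/- against Wip1+/+ (-0.57, SE 0.14, limma adjusted p = 0.0116) and against Wip1-/- (-0.64, SE 0.14, limma adjusted p = 0.00526). Without background correction these changes were -0.26 and -0.30 and remained called. The gene's brighter probe, ILMN_2594718, stood at 6.15, 5.99 and 6.43 on the arrays labelled Wip1-/- Atm+/-, 6.28, 6.56 and 6.26 on Wip1-/- arrays and 6.64, 6.29 and 6.65 on Wip1+/+ arrays. Its groups overlapped, and it was not called in Wip1-/- Atm+/- against Wip1+/+ (-0.34, SE 0.16, limma adjusted p = 0.133).

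The remaining tested somatic and epididymal genes were dim. Adam11, a brain ADAM protein without protease activity, ranged from 5.04 to 5.73 over the arrays. Adam22, the receptor of the LGI proteins, ranged from 5.51 to 6.35 by ILMN_3134632 and from 5.18 to 5.80 by ILMN_2759398. The first of these came close to a call in Wip1-/- against Wip1+/+ (-0.46, SE 0.15, limma adjusted p = 0.0519). Adam28 was detected on 2 arrays labelled Wip1-/- Atm+/-, 0 Wip1-/- arrays and 1 Wip1+/+ array and was not called. For each of these probes depth of signal over background limits what could be seen.

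In 8 genes more than 1 probe was tested, and the differences between probes of 1 gene on 1 array were compared between genotypes. The 10 pairs of probes and 3 comparisons gave 30 exact permutation tests, two-sided, of which none could give a p below 0.1 with 3 arrays against 3, and the smallest adjusted p was 0.25. For Adam15, ILMN_1240629 minus ILMN_3139103 averaged 0.17 ± 0.25 on the arrays labelled Wip1-/- Atm+/-, -0.32 ± 0.14 on Wip1-/- arrays and 1.23 ± 0.29 on Wip1+/+ arrays (SD, n = 3 each). No array of either mutant reached the Wip1+/+ values (exact permutation p = 0.1 for each, the smallest possible). For Adam1b, ILMN_3131005 minus ILMN_3054283 averaged 2.94 ± 0.24, 1.84 ± 0.10 and 1.87 ± 0.11 in Wip1-/- Atm+/-, Wip1-/- and Wip1+/+. The difference was larger on the arrays labelled Wip1-/- Atm+/- (1.07 against Wip1+/+, exact permutation p = 0.1) and changed by -0.04 in Wip1-/- (exact permutation p = 0.6). A shift of such a difference shows unequal change of the probes and does not say which transcript or which part of it is involved.

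**Figure D4:**
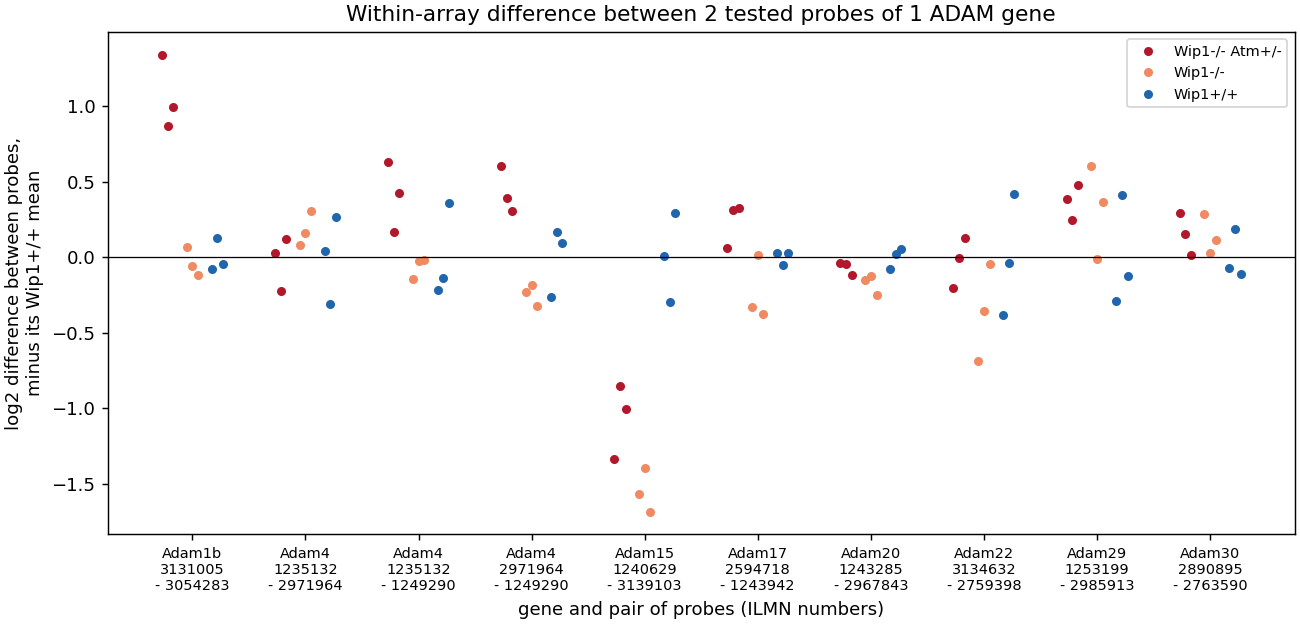
Log2 difference between tested probes of the same ADAM gene on each array, minus the mean of that difference on Wip1+/+ arrays, for 10 pairs of probes. Each point is an array, with Wip1-/- Atm+/- left, Wip1-/- in the middle and Wip1+/+ right in each pair; Adam15 lies below 0 in both mutants and Adam1b above 0 on the arrays labelled Wip1-/- Atm+/-.

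Because the series title concerns DNA methylation, the CpG content of the promoters is described. Of the 32 ADAM genes, 16 matched the RefSeq promoter table by symbol. In the 300-base windows the 10 promoters of sperm genes and Adam34l held 0 to 2 CpG dinucleotides, against 6 to 32 in the 6 somatic promoters, where the median over all 32851 promoters was 7. Adam15 and Adam21 are shown as examples of called genes on either side. The 250 bases before each start lie at chr3:89350029-89350278 for Adam15 and chr12:81568475-81568724 for Adam21, both on the minus strand of GRCm38.p6. Capitals mark CpG dinucleotides, 18 in Adam15 and 0 in Adam21.
Adam15: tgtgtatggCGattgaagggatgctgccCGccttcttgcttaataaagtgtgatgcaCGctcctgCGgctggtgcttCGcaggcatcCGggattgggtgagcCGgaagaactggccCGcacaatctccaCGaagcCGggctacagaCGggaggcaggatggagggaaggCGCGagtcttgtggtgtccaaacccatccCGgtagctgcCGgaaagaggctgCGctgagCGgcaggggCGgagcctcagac
Adam21: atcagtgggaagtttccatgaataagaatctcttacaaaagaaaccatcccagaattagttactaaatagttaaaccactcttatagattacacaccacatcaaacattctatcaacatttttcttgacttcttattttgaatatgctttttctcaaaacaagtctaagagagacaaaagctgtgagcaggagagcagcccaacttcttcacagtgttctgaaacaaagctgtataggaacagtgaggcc
Called genes lay at both ends of this range, with Adam1b at 2, Adam6a at 1, Adam6b and Adam21 at 0, Adam15 at 25 and Adam17 at 30 CpG per window. Short motifs were counted on both strands. The letters GGGCGG were in 4 of the 6 somatic promoters and 0 of the 10 sperm ones, against 35.7% of all promoters, and CCAAT was in 3 and 6, against 37.4%. TATAAA was in 0 somatic and 4 sperm promoters, Adam6a and Adam6b among them, against 13.6%, and TGACG was in 1 somatic (Adam10) and 0 sperm promoters, against 20.8%. These are descriptions of letters in the windows, and methylation was not measured on these arrays.

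**Figure D5:**
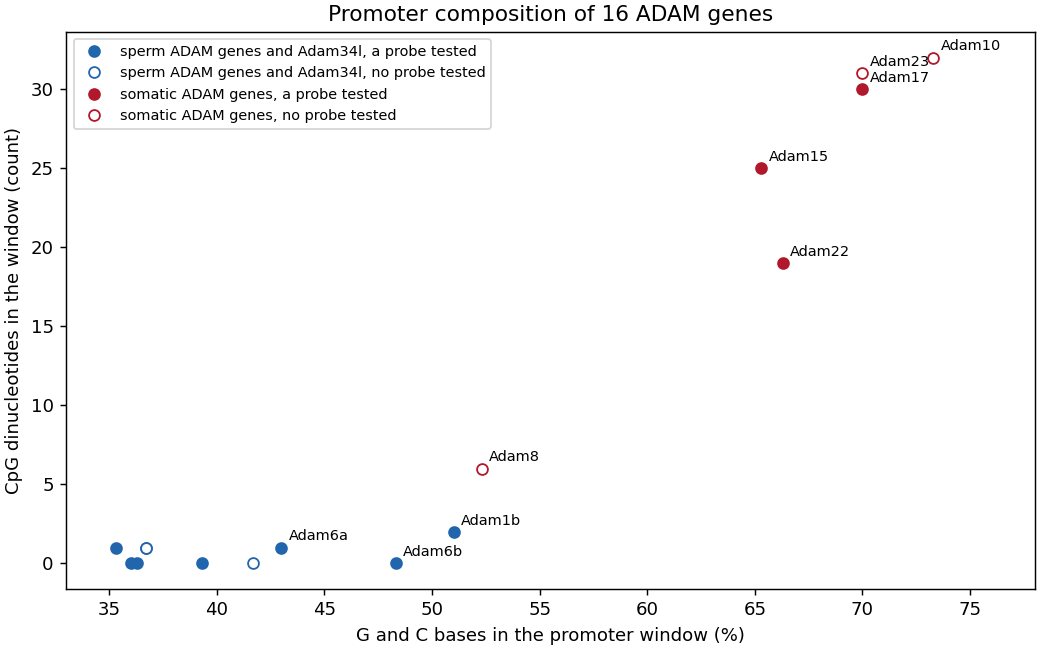
CpG dinucleotides (count) against the share of G and C bases (%) in the 300-base promoter window of 16 ADAM genes, blue for sperm genes and Adam34l and red for somatic genes, filled where a probe was tested. Sperm promoters hold 0 to 2 CpG and somatic ones 6 to 32, and the points of Adam20 and Adam25 coincide.

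In a list for ADAM maturation in the testis, 17 genes were tested. In Wip1-/- against Wip1+/+ (median 0.05), 1 was higher and 4 were lower, where 9.6% and 8.07% of all probes were. The lower ones were Clpb (-1.19 ± 0.15), a mitochondrial chaperone that is in the list without an established part in this process, Cmtm2b (-0.91 ± 0.20), Prss37 (-0.78 ± 0.22) and Prss55 (-0.74 ± 0.15) (log2 change ± SE). Prss37 and Prss55 belong to the serine protease family and are needed in mouse for sperm to pass into the oviduct. The higher one was the chaperone gene Hsp90b1 (0.61 ± 0.15), a member of the list whose change was smaller than those of the lower ones and which is named as the only higher call. In Wip1-/- Atm+/- against Wip1+/+ (median -0.25) 2 were higher and 3 lower. They included Tex101 (-1.42 ± 0.19), a germ cell surface protein needed for ADAM3, the chaperone Calr (-0.62 ± 0.14), Ace (0.62 ± 0.12), of which the testis form bears on ADAM3 in mouse, and Tpst2 (0.44 ± 0.11), a sulfotransferase. In Wip1-/- Atm+/- against Wip1-/- (median 0.02) 4 were higher and 3 lower, led by Tex101 (-1.80 ± 0.19), Calr (-0.97 ± 0.14), Clpb (0.93 ± 0.15) and Ly6k (0.73 ± 0.17), a partner of Tex101. All calls are limma adjusted p under 0.05. Over all probes 13.3% were higher and 14.8% lower in Wip1-/- Atm+/- against Wip1+/+, and 15.1% higher and 18.6% lower in Wip1-/- Atm+/- against Wip1-/-. The bases differ here and in the lists below. A list gene counts once, by its brightest tested probe, while the shares count every tested probe, dim ones and several of 1 gene included.

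In a list of 13 tested genes for binding and fusion with the egg, 1 was lower in Wip1-/- against Wip1+/+, Spaca6 (-0.54 ± 0.15), a fusion factor, and 0 were higher (1 at an unadjusted limma p under 0.05). In Wip1-/- Atm+/- against Wip1+/+, 1 was higher, Llcfc1 (0.57 ± 0.17), also a fusion factor, and 1 lower, Dcst1 (-0.74 ± 0.21). In Wip1-/- Atm+/- against Wip1-/-, 2 were higher, Llcfc1 (0.54 ± 0.17) and Spaca6 (0.49 ± 0.15), and 4 lower. The lower ones were Dcst1 (-0.62 ± 0.21), the acrosomal gene Acrv1 (-0.43 ± 0.11), Acr and Zpbp2. Acrv1, Acr and Zpbp2 were also counted above as lower round spermatid markers, so these are not separate results. With 13 genes these counts stand against shares over all probes of 9.6%, 13.3% and 15.1% higher and 8.07%, 14.8% and 18.6% lower. The list's medians were 0.10, -0.10 and -0.15 in these comparisons, against 0.02, -0.06 and -0.03 for all probes.

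Regulators of shedding included genes called in each comparison. Of 14 tested genes, 4 were higher and 1 lower in Wip1-/- against Wip1+/+, 4 higher and 2 lower in Wip1-/- Atm+/- against Wip1+/+, and 4 higher and 0 lower in Wip1-/- Atm+/- against Wip1-/- (1 lower at an unadjusted limma p under 0.05), with medians of 0.29, 0.24 and 0.17. Over all probes 9.6%, 13.3% and 15.1% were higher and 8.07%, 14.8% and 18.6% lower, with medians of 0.02, -0.06 and -0.03. Timp3, the tissue inhibitor that acts on ADAM17, averaged 10.60 ± 0.19 on the arrays labelled Wip1-/- Atm+/-, 8.70 ± 0.21 on Wip1-/- arrays and 7.59 ± 0.16 on Wip1+/+ arrays (log2, SD, n = 3 each), a change of 3.00 in Wip1-/- Atm+/- and 1.11 in Wip1-/- against Wip1+/+ (SE 0.15, limma adjusted p = 1.01e-07 and 8.32e-04). Rhbdf1, which helps ADAM17 mature, averaged 7.83 ± 0.13, 6.47 ± 0.06 and 5.47 ± 0.06 in the same order. It was detected on 1 of 3 Wip1+/+ arrays, so its Wip1+/+ level lies near background and the size of its rise is uncertain. Timp2 and the proprotein convertase Furin were higher in Wip1-/- Atm+/- against Wip1+/+ by 2.08 ± 0.14 and 1.12 ± 0.15 (SE). In Wip1-/- against Wip1+/+, Reck, a membrane-anchored inhibitor, was higher (0.50 ± 0.13) and Tspan33, a tetraspanin partner of ADAM10, lower (-0.50 ± 0.12). Timp4 was not well above background on any array labelled Wip1-/- Atm+/- and was at least 1.39-fold lower there than in Wip1+/+ (limma adjusted p = 0.00937).

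Of 13 tested genes for shed substrates and ADAM ligands, 1 was higher in Wip1-/- against Wip1+/+, 6 in Wip1-/- Atm+/- against Wip1+/+ and 5 in Wip1-/- Atm+/- against Wip1-/-, with 0 lower in each by limma (1, 1 and 0 lower at an unadjusted p under 0.05) and medians of 0.15, 0.36 and 0.21. The shares over all probes were 9.6%, 13.3% and 15.1% higher, so 1 of 13 in Wip1-/- against Wip1+/+ was near that of all probes. Cx3cl1, a chemokine that is cut from endothelial cells, averaged 7.72 ± 0.15 on the arrays labelled Wip1-/- Atm+/-, 6.66 ± 0.11 on Wip1-/- arrays and 5.75 ± 0.18 on Wip1+/+ arrays (log2, SD, n = 3 each), and both mutants were called higher than Wip1+/+. Notch3, a receptor of vascular smooth muscle, was not well above background on any Wip1+/+ array and was at least 1.51-fold higher in Wip1-/- Atm+/- (limma adjusted p = 6.22e-04). The proteoglycan gene Sdc4 and the growth factor gene Epgn were higher in Wip1-/- Atm+/- against Wip1+/+ by 1.05 ± 0.19 and 0.73 ± 0.12 (SE). Of this list, 14 members, Hbegf, Tnf, Notch1 and Notch2 among them, were not tested. Timp3, Rhbdf1 and Cx3cl1 followed the order of the summed peritubular, vascular and stromal markers, in which Acta2 weighs most. Of those markers, Cdh5, Tek and Lum did not follow it and had their highest mean in Wip1-/-. Lum averaged 5.96, 6.21 and 6.17 in Wip1-/- Atm+/-, Wip1-/- and Wip1+/+ and was not called. Eng was alike in the mutants, at 6.10 in each. The part of the summed markers in these 2 lists was not tested.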

How the data were processed

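RNA of mouse spermatids from 3 genotypes was measured on 9 Illumina Mouse WG-6 v2.0 arrays, grouped by the genotype label. The deposited scanner table gives, per the file headers, an unnormalized signal intensity per probe and array, with a detection p, treated as a score because 895 cells, per the deposited values, had lost their decimal point and were read as thousandths. The authors' processed intensity values of the same arrays share 1 distribution on a linear scale, by their values. Scanner software, earlier steps, slide and scan date: not given in the sources used here. Signals were corrected with the detection p (neqc, offset 16), quantile normalized and tested on the log2 scale per probe with lmFit and eBayes of limma 3.58.1 in R 4.3.3 over all 9 arrays. The two-sided tests covered the 18867 probes detected on at least 3 arrays, and p-values were adjusted over all of them by Benjamini-Hochberg. Of 45279 probes, 1697 have blank scanner cells. Adam18, 1 of these, was tested with limma on log2 of the authors' intensity values. Symbols came from the platform annotation, and all 65 ADAM probes matched the GRCm38.p6 gene table. Promoter identity came from global alignment in Biopython.

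The ADAM genes and partner lists were chosen with earlier results of these data known. Values of each array are given for ADAM genes called in any comparison, by the brightest detected probe and by other probes that differ from it, and for each partner list up to 4 called members of the largest change per comparison. A partner gene was read by its brightest tested probe. Folds marked "at least" set the brighter genotype's mean log2 signal against the higher of the dim probe and the lowest signal well above background on each array. The fit was tested on simulated data. Deviations of same-numbered arrays from their genotype means had correlations from -0.332 to 0.278. Those between the mutants were all positive (0.044 to 0.278). Replicate numbers were not taken as pairs, and these values do not show that the arrays were unpaired. Alternatives were other scalings, background and filter settings, 1 probe per gene, the authors' values, the 2 genotypes alone, the replicate number as a block and each array left out.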

Additional observations from a re-analysis of the deposited data

Results flagged for a closer look

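The change against Wip1+/+ differed between the mutants, by the limma contrast of Wip1-/- Atm+/- against Wip1-/-, for 7 ADAM probes. The difference was -1.30 for Adam1b ILMN_3054283, -0.76 for Adam6b ILMN_1237945 and -0.64 for Adam17 ILMN_1243942. It was 1.11 for Adam15 ILMN_1240629, 0.62 for Adam15 ILMN_3139103, 0.46 for Adam4 ILMN_2971964 and 0.41 for Adam21 ILMN_1221608 (log2). Since Ppm1d was not lower on the arrays labelled Wip1-/- Atm+/-, these values compare the arrays by their labels.

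A further 4 probes outside the tested set rose above background on a single mutant array and on 0 Wip1+/+ arrays. Adam9 ILMN_2649502 was detected on 1 array labelled Wip1-/- Atm+/- and averaged 5.47 in that genotype, against 5.11 in Wip1-/- and 4.92 in Wip1+/+ (log2 signal). The other probes were each detected on 1 Wip1-/- array. Adam15 ILMN_1239236 averaged 5.12 in Wip1-/- against 4.91 in Wip1+/+, Adam26a ILMN_1244723 averaged 5.33 against 5.07, and Adam34 ILMN_2688694 averaged 5.16 against 5.14. At a detection p of 0.05 single detections of this kind are also produced by background.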

How the results depend on the processing

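For the 9 ADAM probes called at least once, 468 values were recomputed. Of these, 421 kept their side of the threshold, 43 lost a call, 4 gained one and 0 called values reversed; the losses are named beside each gene, other than those under the replicate block, which were Adam6a in Wip1-/- Atm+/- against Wip1+/+ (adjusted p = 0.0576) and Adam4 ILMN_2971964 in Wip1-/- Atm+/- against Wip1-/- (0.0566). Counts of called ADAM probes are small and moved easily. With 1 probe per gene, tested as genes, Wip1-/- against Wip1+/+ gave 0 higher by limma (1 at an unadjusted p under 0.05), Wip1-/- Atm+/- against Wip1+/+ gave 1 higher and 1 lower, and Wip1-/- Atm+/- against Wip1-/- gave 2 higher and 1 lower. The totals over all genes were then 2095, 3105 and 3670 of fewer tests. Under median scaling Wip1-/- Atm+/- against Wip1+/+ gave 1 higher, and Wip1-/- Atm+/- against Wip1-/- gave 1 higher and 6 lower. With no filter on dim probes, and with the 2 genotypes alone, 1 was lower in Wip1-/- against Wip1+/+, and the 2 genotypes alone gave 1 higher in Wip1-/- Atm+/- against Wip1+/+. The replicate block also gave 1 higher in Wip1-/- Atm+/- against Wip1+/+ and moved no other count by over 1.5 times. Replicate numbers are not known to pair the arrays. Leaving out 1 array each, Wip1-/- against Wip1+/+ gave 0 to 2 higher, 1 to 3 lower and 1889 to 3311 calls over all probes, Wip1-/- Atm+/- against Wip1+/+ gave 1 to 3 higher, and Wip1-/- Atm+/- against Wip1-/- gave 1 to 5 higher. The lowest total came without Wip1-/- replicate 1. Under median scaling the partner list counts became 8 for sperm ADAM maturation in Wip1-/- Atm+/- against Wip1+/+, 7 for shedding regulators and 3 for shed substrates in Wip1-/- Atm+/- against Wip1-/-, and 2 for shed substrates and 0 for binding and fusion in Wip1-/- against Wip1+/+. The causes of these moves were not tested. Adam18 was called in none of its alternatives. Signal over background limits the dim somatic probes, for which an absent call is no sign of an absent change.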
